A study of Oncorhynchus mykiss with 6 samples.

Results

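The miR-148 and miR-152 family comprised 14 of the 1389 sequences in the table of hepatic small RNA, namely every sequence whose name holds mir-148 or mir-152. There were 6 sequences named for miR-148 and 8 named for miR-152. Each name begins with the fish whose miRBase entry the sequence matched, with dre for zebrafish, fru for fugu, ola for medaka, ssa for Atlantic salmon and ipu for channel catfish. A suffix with L or R gives bases lost or gained at the 5′ or 3′ end of that entry, a suffix with ss gives substituted bases, and p5 marks a piece of the 5′ side of a hairpin that has no mature entry of its own.

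The libraries came from whole liver of wild type juvenile rainbow trout (Oncorhynchus mykiss, strain label Walbaum) that had been held in pairs for 4 days. In each pair the fish with the higher behaviour score was socially dominant (SD) and its partner socially subordinate (SS), and the comparison asked how hepatic miRNAs differed between SS and SD fish. There were 3 SS fish (4A, 6A and 1B) and 3 SD fish (4B, 6B and 21A), with 1 library for each fish. The SS phenotype includes raised cortisol and a short fast, because dominant fish take most of the food, so social status, feeding and cortisol cannot be told apart here. In whole liver, more cells of a type and more RNA per cell cannot be told apart either.

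A miRNA is cut from a hairpin precursor and can be taken from its 5′ arm (5p) or its 3′ arm (3p). Loaded into an Argonaute protein, it lowers the translation or stability of transcripts that pair with it, mainly through the seed, which is bases 2 to 8 from its 5′ end. In mammals, miR-148a, miR-148b and miR-152 share 1 seed and repress DNMT1, the enzyme that maintains DNA methylation. Mammalian miR-148a is abundant in hepatocytes, where it also acts on transcripts of the LDL receptor and of the cholesterol exporter ABCA1, and in the exocrine pancreas. These targets are background from mammals and were not measured in the trout libraries.

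The 5 sequences that carried nearly all reads of the family are shown 5′ to 3′ as the table gives them, with T for U and the seed in capitals. They show that the 3p forms share 1 seed, that the 5p forms share another, and how few bases separate miR-148 from miR-152.
dre-miR-148: tCAGTGCAttacagaactttgt
fru-miR-152: tCAGTGCAtaacagaactttgt
ola-miR-148_R+1: tCAGTGCAttacagaacttta
ssa-miR-148a-5p: aAGTTCTGtgatacacttcgact
ssa-miR-152-5p_L-1: aAGTTCTGtgatacacttaggct
Counting from 1 at the 5′ end, miR-148 and miR-152 differed by the single substitution T10A and were identical at 21 of 22 bases. That base lies outside the seed. The 5p forms were identical at 21 of 23 bases and differed by C19A and A21G, from miR-148a-5p to miR-152-5p. The short form of miR-148 was 21 bases long, and against the main form it carried G21A and lacked the last base. In both hairpins a run of 9 bases, acagaactt at positions 11 to 19 of the 3p form, was the perfect complement of positions 1 to 9 of the 5p form, so the seed of the 5p form lies opposite the 3′ part of the 3p form. The authors placed all 5 sequences in classes whose matched miRBase entries mapped to the trout genome. The class does not show whether the last base of the 21 base form is encoded there. The hairpins and their loci were not analysed here, so arms were paired by their names.

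The family was abundant in every liver. Reads assigned to its 14 sequences numbered 290998, which was 2.55% of all those in the table, and 92.4% of them were 3p forms. The main miR-148 form, dre-miR-148, held 63.8% of the reads of the family and ranked between 7th and 13th of all sequences in the 6 libraries. The miR-152 form fru-miR-152 held 26.0% and ranked between 15th and 24th. The remaining reads were in miR-148a-5p (6.98%), the 21 nt miR-148 form (2.59%) and miR-152-5p (0.651%). Levels of different sequences are counts of reads of nearly equal length and were not scaled further. For reference, miR-122, the hepatocyte miRNA, held 35.7% to 40.4% of the reads of each library.

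The libraries had 8372185 to 10278996 raw reads, and 1183289 to 3382970 reads of each were counted in the table. The adapter was found in 30.2% of raw reads of SD 4B, the lowest share, and in 81.0% of those of SD 21A, the highest. Libraries of the same group differed from each other by far more than sampling noise, with a chi-square of 95.5 to 165 per degree of freedom over the sequences compared, so none was a copy of another in its group. Libraries of different groups were not compared in this way. Intervals for shares of reads cover counting error only, because PCR reads without molecular identifiers are not independent molecules.

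As a share of the reads in the table, the family made up 2.68% in SS 4A, 2.56% in SS 6A and 3.86% in SS 1B. It made up 2.24% in SD 4B, 2.003% in SD 6B and 2.17% in SD 21A. Each of these shares had a 95% Wilson interval of counting error narrower than the gaps between the groups, from 2.54% to 2.59% in SS 6A and from 2.22% to 2.27% in SD 4B, the 2 libraries nearest to each other across the groups. Group means were 3.03% ± 0.715 for SS fish and 2.14% ± 0.123 for SD fish (± SD, here the standard deviation, n = 3 each), and SS 1B stood apart from the other 2 SS fish. Normalized reads divide each count by the size parameter of its library. On this scale the family summed to 54421 ± 7677 for SS fish and 37386 ± 3801 for SD fish (± SD, n = 3 each). All 3 SS fish, at 46871, 54174 and 62218, lay above all 3 SD fish, at 33748, 37077 and 41332. On the same scale the groups overlapped for dre-miR-148 by itself, the largest part of the sum. How many sums of other families separated the groups in this way was not counted.

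Of the 14 sequences, 5 had enough reads to be tested and 9 did not. Every one of the 5 had a fitted log2 fold change above 0, with SS over SD, beside 168 of all 338 tested sequences (49.7%). In 3 of the 5, fru-miR-152, the 21 nt miR-148 form and miR-152-5p, the lowest SS value exceeded the highest SD value in normalized reads, beside 36 of 338 (10.7%). With an unadjusted p under 0.05, edgeR's quasi-likelihood test found 3 of the 5 higher in SS, namely dre-miR-148, fru-miR-152 and the 21 nt form, beside 22 of 338 (6.51%). With adjustment over all 338 sequences, 0 of the 5 passed at 0.05 in edgeR or in limma. In DESeq2, which gave an adjusted p for 334 sequences, 1 of the 5 passed, the 21 nt form, beside 7 of the 334. In edgeR, 2 of the 338 sequences passed (0.592%), neither of them in the family. The median log2 fold change was 0.48 over the 5 and -0.019 over all 338. The 5 are not independent of each other, since they include forms and arms that share a miRNA name.

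**Figure D1:**
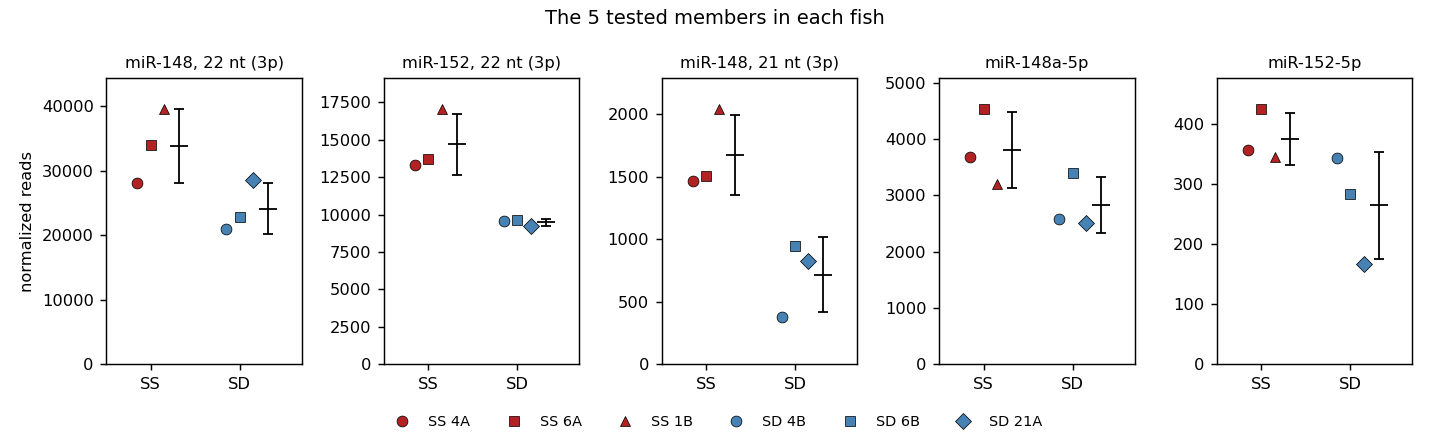
Normalized reads of the 5 tested sequences in each of 3 SS and 3 SD fish, 1 panel for each sequence, on linear axes that start at 0. Points are fish, and the black bar with its whiskers is the group mean ± SD. The groups do not overlap for miR-152, for the 21 nt miR-148 form and, by 345 against 343, for miR-152-5p, and they overlap for dre-miR-148 and miR-148a-5p.

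The main 3p form of miR-148, dre-miR-148, was at 28038, 34010 and 39562 normalized reads in SS 4A, 6A and 1B. It was at 20905, 22816 and 28591 in SD 4B, 6B and 21A. SS 1B was the highest fish and SD 4B the lowest, and the groups overlapped because SD 21A lay just above SS 4A. Group means were 33870 ± 5763 for SS fish and 24104 ± 4002 for SD fish (± SD, n = 3 each). The fitted log2 difference, SS over SD, was 0.47 with a standard error of 0.20 and a 95% interval of 0.01 to 0.93. In edgeR this had an unadjusted p = 0.0461 and an adjusted p = 0.448, so the difference did not pass.

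For miR-152, which differs from miR-148 by 1 base outside the seed, fru-miR-152 was at 13329, 13690 and 17059 normalized reads in SS 4A, 6A and 1B. The SD fish 4B, 6B and 21A were at 9539, 9630 and 9231. The SD fish lay within a narrow band and all SS fish lay above it, with SS 1B again the highest. SS fish averaged 14693 ± 2057 and SD fish 9467 ± 209 (± SD, n = 3 each). The fitted log2 difference was 0.61 with a standard error of 0.18 and a 95% interval of 0.21 to 1.02. Among the 5 sequences it had the smallest unadjusted p in edgeR, 0.00823, with an adjusted p = 0.294. In its correlations with predicted targets, the study listed fru-miR-152 among the miRNAs that it counted as differentially regulated from the sequencing. The study's threshold for these was p under 0.05, and its text names no adjustment for them. The unadjusted p in edgeR, 0.00823, was also under 0.05. By real-time RT-PCR, a different method, the study reported no significant difference in miR-152 between SS and SD fish. The degrees of freedom it gives for RT-PCR exceed those of 3 fish a group. The RT-PCR was thus not limited to the sequenced fish.

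The 21 nt form of miR-148, ola-miR-148_R+1, ends in A where the main form goes on. It was at 1469, 1505 and 2042 normalized reads in SS 4A, 6A and 1B, and at 377, 943 and 827 in SD 4B, 6B and 21A. All SS fish lay above all SD fish, and SD 4B stood below the other 2 SD fish. SS fish averaged 1672 ± 321 and SD fish 716 ± 299 (± SD, n = 3 each). The fitted log2 difference of 1.20 (standard error 0.36, 95% interval 0.38 to 2.02) was the highest of the 5, with an unadjusted p = 0.00957 and an adjusted p = 0.294 in edgeR. It was the only member to pass under any alternative, with an adjusted p = 0.0491 in DESeq2 and an adjusted p = 0.0199 in edgeR without a filter on low counts. Without SD 4B its log2 fold change was 0.84. SD 4B also had the lowest share of reads with an adapter, 30.2%, and the part of this in the result was not tested.

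On the 5p side, ssa-miR-148a-5p was at 3675, 4537 and 3205 normalized reads in SS 4A, 6A and 1B, against 2581, 3400 and 2512 in SD 4B, 6B and 21A. Here SS 6A and SD 6B were the highest of their groups, SS 1B was the lowest SS fish, and the groups overlapped. SS fish averaged 3806 ± 675 and SD fish 2831 ± 494 (± SD, n = 3 each). The fitted log2 difference was 0.40, its standard error 0.22 and its 95% interval -0.11 to 0.90. The adjusted p in edgeR was 0.523.

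The least abundant of the 5, ssa-miR-152-5p_L-1, was at 356, 425 and 345 normalized reads in SS 4A, 6A and 1B, against 343, 283 and 167 in SD 4B, 6B and 21A. The groups were separate by 345 against 343, and SD 21A was well below the others. SS fish averaged 375 ± 43.3 and SD fish 264 ± 89.6 (± SD, n = 3 each). The fitted log2 difference of 0.48 (standard error 0.30, 95% interval -0.21 to 1.17) had an unadjusted p = 0.147 and an adjusted p = 0.540 in edgeR, and it was 0.23 without SD 21A. The lowest count behind any of the 5 sequences was the 231.5 reads of this one in SD 6B.

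**Figure D2:**
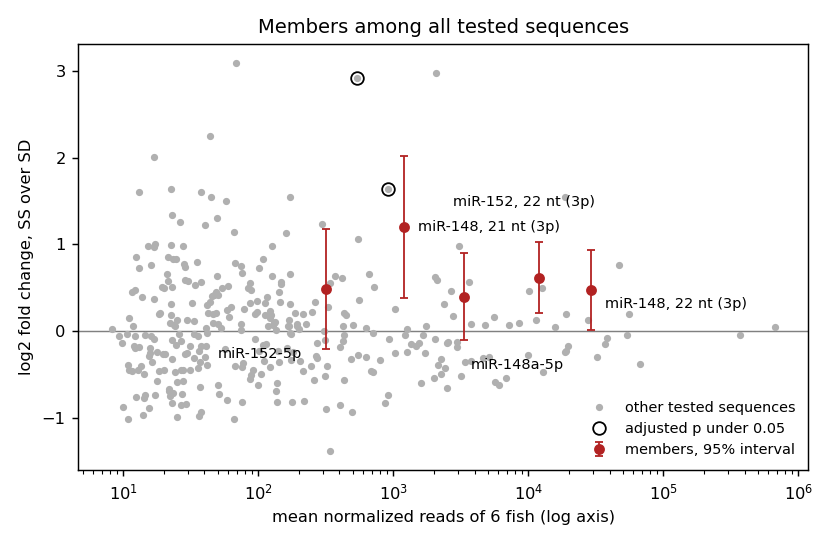
Log2 fold change of SS over SD fish against mean normalized reads of the 6 fish, on a log axis, for the 338 tested sequences. Red points are the 5 tested sequences of the family with 95% intervals, grey points the others, and open circles the 2 sequences with an adjusted p under 0.05. The 5 red points lie between 0.40 and 1.20, with the intervals of both 5p forms reaching below 0.

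The other 9 sequences held 28.5 reads together, 0.00979% of the reads of the family, with totals of 0.5 to 12 reads. Of these, 2 were above 0 in every library. They were dre-miR-152_R-1, at 1.32 to 2.85 normalized reads, and fru-miR-152_R+2, at 0.42 to 1.90, and neither separated the groups. Another 4 were above 0 in 2 libraries and 3 in 1 library, and none had more than 3.33 reads in any library, so no difference between SS and SD fish was detectable for them at this depth. Fractions arise because a read that fitted several sequences was shared between them. The zebrafish-like form dre-miR-152_R-1 differed from fru-miR-152 by A10G and ipu-miR-152_1ss11AG by A10G and A11G, so these variants differed at position 10, the base that also separates miR-148 from miR-152, and in the second case at the next base too. Their sequences are shown for that position.
dre-miR-152_R-1: tCAGTGCAtgacagaactttg
ipu-miR-152_1ss11AG: tCAGTGCAtggcagaactttg

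Because the seed directs most targeting, the counts were also summed over all sequences that share a seed. The seed CAGTGCA of the 3p forms was shared by 6 members and by 1 predicted sequence outside the family, PC-3p-28697_11, with 8.5 reads. Its 6 members summed to 42839, 49209 and 58667 normalized reads in SS 4A, 6A and 1B and to 30823, 33393 and 38652 in SD 4B, 6B and 21A. All SS fish were above all SD fish, averaging 50238 ± 7964 against 34289 ± 3991 (± SD, n = 3 each). How many of all tested seeds separated the groups in this way was not counted. The log2 fold change of the seed was 0.58 (standard error 0.19, 95% interval 0.15 to 1.01), with an unadjusted p = 0.0143 and an adjusted p = 0.318 in edgeR over 216 seeds.

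The seed AGTTCTG of the 5p forms was held by 4 members. These summed to 4032, 4962 and 3550 normalized reads in SS 4A, 6A and 1B and to 2924, 3685 and 2680 in SD 4B, 6B and 21A. The groups overlapped, with SD 6B above SS 1B. The log2 fold change was 0.45 (standard error 0.22, 95% interval -0.05 to 0.95) with an adjusted p = 0.524 in edgeR. Thus 0 of the 2 main seeds of the family passed after adjustment, in edgeR and also in DESeq2 and limma, beside 2 of 216 seeds (0.926%) in edgeR. At an unadjusted p under 0.05, 1 of the 2 was higher in SS, beside 18 of 216 (8.33%). The remaining 4 members had other seeds and 4.5 reads in all. For 1 of these, fru-mir-152-p5_1ss6AG, the seed TGTGGAT also occurred in the predicted sequence PC-5p-60942_4, with 7 reads.

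**Figure D3:**
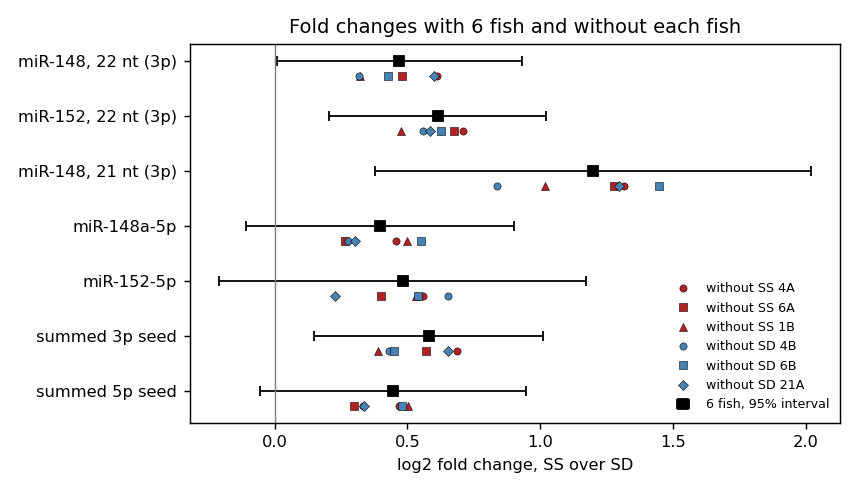
Log2 fold change of SS over SD fish for the 5 tested sequences and the 2 summed seeds. Black squares with whiskers are values from all 6 fish with 95% intervals, and colored points are values with 1 fish left out. Every point lies above 0, from 0.23 for miR-152-5p without SD 21A to 1.45 for the 21 nt miR-148 form without SD 6B.

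Ratios of 2 members within a library need no scaling between libraries, and 4 such ratios were compared with a two-sided exact permutation test, which cannot give p below 0.1 with 3 fish against 3. The ratio of miR-148 to miR-152, from their main 3p forms, was 2.10, 2.48 and 2.32 in SS 4A, 6A and 1B, against 2.19, 2.37 and 3.10 in SD 4B, 6B and 21A. The groups overlapped and SD 21A alone was above 3. The log2 difference of -0.14 had an exact p = 0.6 (adjusted p = 0.9 over the 4 ratios), and without SD 21A it was 0.01.

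Arm choice was compared in the same way. In the miR-148 hairpin, the 3p form exceeded the 5p form by 7.63, 7.50 and 12.3 times in SS 4A, 6A and 1B and by 8.10, 6.71 and 11.4 times in SD 4B, 6B and 21A. In the miR-152 hairpin these ratios were 37.4, 32.2 and 49.4 in SS and 27.8, 34.0 and 55.3 in SD fish. In both hairpins the 3p arm dominated in every fish, and the 2 fish with the highest ratio were the same, SS 1B and SD 21A, 1 from each group. The log2 differences between groups were 0.06 for either hairpin, with an exact p = 0.7 for miR-148 and an exact p = 0.9 for miR-152 (both adjusted p = 0.9). Both differences turned below 0 without SS 1B, to -0.17 and -0.11, and the cause was not tested. Among 33 other hairpins with 2 tested arms, 1 had SS 1B and SD 21A as its 2 highest fish in the ratio of 3p to 5p, a count made after the values were seen.

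The 21 nt form of miR-148 amounted to 5.24%, 4.43% and 5.16% of the main 22 nt form in SS 4A, 6A and 1B and to 1.80%, 4.13% and 2.89% in SD 4B, 6B and 21A. Every SS fish was above every SD fish, with SS 6A and SD 6B next to each other. SS fish averaged 4.94% ± 0.448 and SD fish 2.94% ± 1.17 (± SD, n = 3 each). The geometric means, which the test on log2 ratios compared, differed 1.77-fold (log2 difference 0.82). The exact p = 0.1 was the smallest the design allows, and the adjusted p was 0.4. As a share of both forms together, the 21 nt form was 4.24% in SS 6A, with a 95% Wilson interval from 3.99% to 4.50%, and 3.97% in SD 6B, with an interval from 3.71% to 4.26%. These intervals overlap, so counting error alone covers the gap between the 2 nearest fish. Without SD 4B the log2 difference was 0.51. For 56 other pairs of a major and a minor form that share their first 18 bases, the ratio was higher in every SS than in every SD fish in 2 (3.57%) and lower in every SS than in every SD fish in 11, and the median log2 difference was -0.14. Of the 12 such pairs with a minor form ending in A, 0 separated the groups with SS above SD and 5 with SS below SD. These pairs were chosen after the values of the family were seen, by shared bases alone, so some join differently named miRNAs. Among the 5 were ipu-miR-29a_R+2 with ssa-miR-29b-2-5p_L-2 and fru-miR-135b_R+1 with dre-miR-135a_1ss19TC. The counts are therefore not a background of end forms of 1 miRNA. Such a ratio also depends on its major form, as for dre-miR-21_1ss23CA (log2 fold change 0.03) over fru-miR-21 (1.55).

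**Figure D4:**
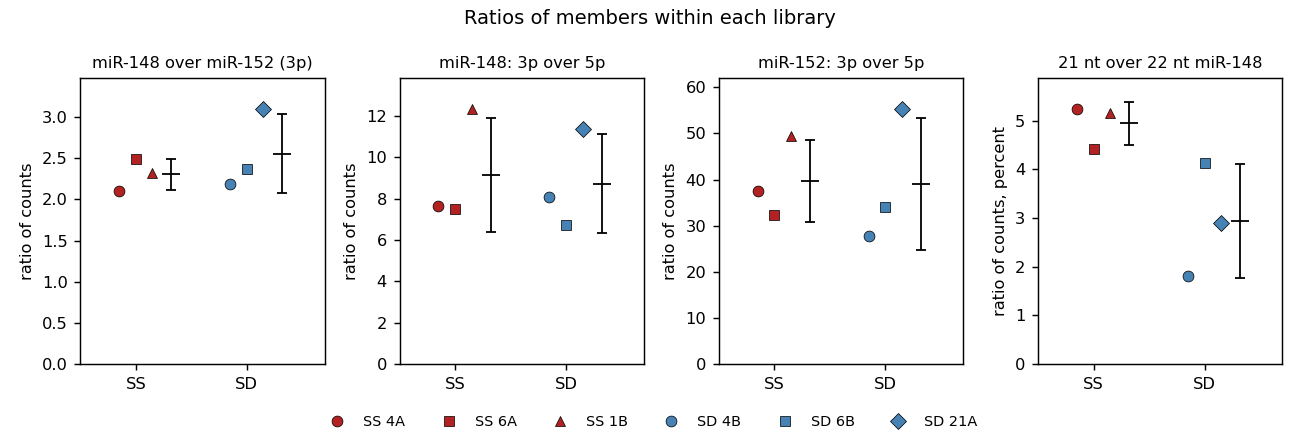
Ratios of members within each library for 3 SS and 3 SD fish, on linear axes that start at 0. The panels give miR-148 over miR-152, the 3p over the 5p form of each hairpin, and the 21 nt as a percent of the 22 nt miR-148 form, with points for fish and black bars for group means ± SD. Only the last panel has separate groups, 4.43% to 5.24% in SS and 1.80% to 4.13% in SD fish.

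The sequences most like each main 3p form over the 6 fish were found by the root mean square difference of log2(normalized reads + 1) after each profile was centred on its own mean. For dre-miR-148 these were ssa-miR-21a-5p_R-3 (0.151), the miR-126 form fru-miR-126 (0.158) and ssa-miR-122-2-3p_1ss10AT (0.159), with fru-miR-152 in 4th place (0.180). For fru-miR-152 they were ssa-miR-122-2-3p_1ss10AT (0.0835), ssa-miR-21a-5p_R-3 (0.119) and ola-miR-301a-5p_R+1 (0.138), with dre-miR-148 in 5th place. The 2 main forms were thus near each other in profile, and they share 6 libraries and their scaling. The other members were farther away. To dre-miR-148, miR-148a-5p was 41st, miR-152-5p 135th and the 21 nt form 173rd, so the forms that share the name miR-148 were not among its nearest profiles. The nearest sequence to fru-miR-152, ssa-miR-122-2-3p_1ss10AT, was at 3688, 4077 and 5398 normalized reads in SS 4A, 6A and 1B, against 2735, 3155 and 2865 in SD 4B, 6B and 21A, with separate groups (log2 fold change 0.57, adjusted p = 0.416 in edgeR). It was chosen for its likeness to fru-miR-152, so a like difference between the groups is no separate result.

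Other miRNA families with members that act in mammals on the same 2 pathways were described from lists. A sequence was listed by its miRNA number alone, so the lists hold both arms of each hairpin, with different seeds, and not only the arm known to act. Of 31 sequences in the list of DNA methyltransferase miRNAs (miR-29, miR-101, miR-126, miR-143 and miR-342), 15 were tested. Of these 12 had a fitted log2 fold change above 0, beside 168 of all 338 (49.7%), with a median of 0.23 beside -0.019 over all 338. In this list 1 of the 15 passed the adjusted test, beside 2 of all 338 (0.592%). This was ssa-miR-29b-2-5p_L-2 (log2 fold change 1.63, adjusted p = 0.0138 in edgeR), from an arm of a hairpin of miR-29, a family that represses DNA methyltransferases in mammals. It was at 1090, 1722 and 1344 normalized reads in SS 4A, 6A and 1B, against 456, 414 and 445 in SD 4B, 6B and 21A. At an unadjusted p under 0.05 in edgeR, 3 of the 15 were higher in SS and 0 lower, beside 22 of 338 higher (6.51%) and 14 lower. Besides ssa-miR-29b-2-5p_L-2 these were dre-miR-29b (log2 fold change 1.06, adjusted p = 0.328 in edgeR) and ssa-miR-29c-5p (1.60, adjusted p = 0.301), both with separate groups. All 3 were miR-29 sequences, and ssa-miR-29b-2-5p_L-2 and ssa-miR-29c-5p are 5p arms. The other tested miR-29 sequences were ssa-miR-29b-3p (log2 fold change 0.99) and ipu-miR-29a_R+2 (-0.94), both with overlapping groups. Thus miR-29 was not uniformly higher in SS, and ipu-miR-29a_R+2 shares its first 18 bases with ssa-miR-29b-2-5p_L-2.

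Of 89 sequences in the list of cholesterol and lipoprotein miRNAs, which includes miR-122, miR-27, miR-33, miR-128 and miR-130, 40 were tested and 0 passed after adjustment in edgeR. At an unadjusted p under 0.05 in edgeR, 4 of the 40 were higher in SS and 0 lower, beside 22 of all 338 higher (6.51%) and 14 lower. Fitted above 0 were 24 of 40, with a median of 0.09, beside 168 of 338 (49.7%) and a median of -0.019. The 4 were ssa-miR-122-2-3p_1ss10AT, ssa-mir-122-1-p3_1ss12GA, ssa-miR-27d-5p and ssa-miR-128-3-5p. The miR-27 and miR-128 sequences are 5p arms and the miR-122 ones come from the 3p side, whereas the arms known for these targets in mammals are miR-27-3p, miR-128-3p and miR-122-5p. Among the 4, ssa-miR-128-3-5p had a log2 fold change of 1.64 at an adjusted p = 0.266 in edgeR, from at most 50.4 normalized reads in any fish. The main miR-122 form, dre-miR-122_R-1, averaged 694160 ± 119632 normalized reads for SS fish and 657323 ± 55333 for SD fish (± SD, n = 3 each), which overlapped. For the main miR-122 form the log2 fold change was 0.05 (standard error 0.16), below those of the 5 tested sequences of the family.

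Markers of the cell types that whole liver can hold were compared by their summed normalized reads. For hepatocytes the sum over 11 sequences ranged from 576193 to 813536 in SS and from 597730 to 702931 in SD fish. Sums overlapped between the groups for all 9 cell types listed, and no defining marker was at 0. The hepatocyte sum was mostly dre-miR-122_R-1. Of its 5 tested sequences, 2 were higher in SS at an unadjusted p under 0.05 in edgeR, beside 22 of all 338 (6.51%). These were ssa-miR-122-2-3p_1ss10AT and ssa-mir-122-1-p3_1ss12GA, already counted in the cholesterol list. Among hepatocyte sequences 3 of 5 tested were fitted above 0, beside 168 of all 338 (49.7%). The count was 3 of 3 for endothelium, 4 of 7 for leukocytes and 8 of 14 for stroma. For muscle it was 1 of 1, for erythrocytes 0 of 6, for epithelium and bile duct 0 of 4 and for neurons 0 of 3. The sum over 10 pancreas sequences (miR-216, miR-217 and miR-375) was 607 in SS 4A, 164 in SS 6A and 153 in SS 1B, beside 226, 193 and 213 in SD 4B, 6B and 21A. SS 4A stood apart from the other 5 fish. Of these 10 sequences 4 were tested, and all 4 had a fitted log2 fold change above 0, beside 168 of all 338 (49.7%). Their median was 0.89, and 0 of the 4 had an adjusted or an unadjusted p under 0.05 in edgeR. The part of pancreas RNA in the values of the family was not tested. Sums for leukocytes were 1833 to 2173 in SS and 1585 to 2517 in SD fish, and those for endothelium 15357 to 26223 and 15920 to 19380.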

How the data were processed

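Small RNA of 6 livers was sequenced on an Illumina GAIIx. Per the methods and processing notes, the authors trimmed the 3′ adapter, kept inserts of 15 to 32 nt, filtered reads with ACGT10-miR and searched fish miRNAs of miRBase 21 with Bowtie 1.1.1, allowing 1 mismatch in the first 16 bases. The deposited table holds expected counts, in which reads that fitted several sequences were shared (79.8% of values were whole within 1e-06), and normalized reads, a signal the authors made by dividing counts by a library size parameter whose derivation is not given in the sources used here, with 0 written as 0.001. The deposited read summary gives counts of reads per library and filtering step. Columns of samples outside the series: 0.

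Expected counts were rounded and fitted over the whole table with edgeR 4.0.16 in R 4.3.3 (TMM, filterByExpr with a minimum count of 10, robust quasi-likelihood test, Benjamini-Hochberg over 338 sequences or 216 seeds). Standard errors in edgeR were the absolute log2 fold change over the square root of the F statistic of this test. The 95% intervals of fold changes were built from these, so they restate the test's p around the fold change. Within-library ratios were compared by exact permutation in SciPy 1.17.1. The edgeR step was tested on simulated data. DESeq2 1.42.0, limma 3.58.1 on log2(normalized reads + 1) or + 10, other size factors and filters, fractional counts, a replicate block and leaving out each fish were alternatives. The study's methods name DESeq2, which was used here as an alternative, with p left empty where it gave none. Named were all 14 members, the 3 sequences most like each main 3p form, sequences sharing a member's seed, and lists by miRNA number. Members and lists were chosen with earlier results of these data known.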

Additional observations from a re-analysis of the deposited data

How the results depend on the processing

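Over 15 alternatives to the fit, the 5 members and 2 seeds tested with the filter on low counts kept a log2 fold change above 0. The 0 members that passed became 1, the 21 nt miR-148 form, with DESeq2 (log2 fold change 1.24, 7 of 334 sequences called) and with no filter (1.24, 14 of 1283 called), where the cause was not tested. No seed of the family passed in any of them. Ranges of log2 fold change were 0.32 to 0.61 for dre-miR-148, 0.45 to 0.71 for fru-miR-152 (adjusted p 0.232 to 0.608), 0.84 to 1.45 for the 21 nt form (0.0199 to 0.608), 0.27 to 0.55 for miR-148a-5p, 0.23 to 0.65 for miR-152-5p, 0.39 to 0.69 for the 3p seed and 0.30 to 0.50 for the 5p seed. With each fish left out, the log2 difference of the miR-148 to miR-152 ratio was -0.24 to 0.01 (above 0, at 0.0116, without SD 21A), that of the miR-148 arm ratio -0.17 to 0.27 (-0.17 without SS 1B and -0.11 without SD 6B), that of the miR-152 arm ratio -0.15 to 0.34 (-0.11 without SS 1B, -0.15 without SD 4B and -0.0057 without SD 6B), and that of the 21 nt ratio 0.51 to 1.11. The cause was not tested. Settings chosen after seeing the data gave separate groups in 3 of the 5 with TMM-scaled counts (9.47% of all 338) and in 4 as percent of the table (7.69%), where miR-152-5p dropped out and dre-miR-148 and miR-148a-5p came in. With 1 fish left out it was 3 or 4 of the 5, beside 12.4% to 17.5% of all 338. Over all sequences, 0 to 9 were called with 1 fish left out, with 0 without SD 4B or SD 21A, 1 without SD 6B and 9 without SS 6A.

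The numbers 4 and 6 occur in both groups, but no label says that a number marks a shared tank. Deviations correlated at 0.13 for 4A with 4B and 0.44 for 6A with 6B, and at -0.37 to 0.30 for fish with different numbers. A replicate block on these numbers left 0 sequences and 0 members called. SS 1B and SD 21A share a number with no other fish, so in this fit the difference rested on 4A, 4B, 6A and 6B. An effect of the block cannot be told apart from that of fewer fish. The log2 fold changes were 0.46 for dre-miR-148, 0.45 for fru-miR-152 and 1.27 for the 21 nt form (adjusted p = 0.608 for each in edgeR). In edgeR with this block, 2 members in place of 3 had an unadjusted p under 0.05, since fru-miR-152 was at 0.0517, beside 14 of 338 higher in SS (4.14%). Over all 15 alternatives this count was 2 or 3. The form dre-miR-148 was above 0.05 in DESeq2 (unadjusted p = 0.0734), and in edgeR with no filter or a stricter one. It was also above 0.05 in edgeR without SS 6A, SS 1B, SD 4B or SD 6B. The 3p seed was above 0.05 in DESeq2 (0.0729), and in edgeR without SS 1B, SD 4B or SD 6B. With 3 fish a group, the exact tests could not pass 0.05, and the 9 rare members were below what this depth resolves.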
